A study of Mus musculus with 31 samples.

Results

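The 8 genes described here, tied to regulatory T cells and to interleukin 10, were followed through RNA sequencing of mouse T helper 17 (Th17) cells. They are Foxp3, Il2ra, Ikzf2, Izumo1r, Il10, Ebi3, Nt5e and Entpd1. They were taken by name, and all 8 were found among the 31053 gene symbols of each of 3 count tables. In the first and second experiments, naive T cells carrying 2D2, a transgenic T cell receptor that recognises myelin, were turned into homeostatic Th17 cells (Th17Hom), moved into Rag1 KO mice and sorted from the central nervous system (CNS) at the peak of experimental autoimmune encephalomyelitis. The donors were Cyp11a1 WT (n = 4) or cKO (n = 6) in the first, and GR WT (n = 5) or cKO (n = 4) in the second. In the third, inflammatory Th17 cells (Th17Inf) were grown from WT spleen and lymph node cells and kept for 2 days without addition (Control), with dexamethasone (Dex), with TGF-β1 or with both (n = 3 each).

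All groups were labelled C57/B6, and the donor cells of both CNS experiments carried the 2D2 receptor. Without Rag1 the recipients make no lymphocytes with rearranged receptors, but they keep their myeloid cells. Cyp11a1 makes the first enzyme of steroid synthesis, and GR is the glucocorticoid receptor, encoded by Nr3c1. The sources used here do not give the Cre driver of the cKO animals, the doses of Dex and TGF-β1, or whether libraries came from separate animals or cultures. The p-values therefore measure the spread between libraries, which may be technical.

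Regulatory T cells are CD4 T cells that restrain immune responses, and Foxp3 is the transcription factor that defines them. Naive CD4 T cells can switch on Foxp3 when they receive TGF-β and interleukin 2, whereas TGF-β with interleukin 6 leads to Th17 cells, so both lineages share an early signal. Th17 cells can also make IL-10, and in the inflamed nervous system IL-10-producing T cells are known to limit damage. Several of the 8 genes are not restricted to regulatory T cells: Il2ra rises in any activated T cell, and Entpd1 is also high in macrophages and microglia.

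Each library was made from 2000 sorted cells. Total counts ranged from 4322688 to 5118543 for Cyp11a1, from 3552871 to 5623305 for GR and from 2769203 to 4291149 for the cultures. Levels are given in CPM, the count scaled to the depth of its library, and 3 counts, the level that a count of 0 still allows, equal 0.495 to 1.13 CPM depending on the library. Markers of T cells were detected in every group, 12 of 12, with summed levels of 33740 to 39595, 15880 to 21285 and 3344 to 3674 CPM in the 3 experiments. Markers of myeloid cells and microglia (21 genes) summed to 927 to 1803 CPM for Cyp11a1, 6882 to 26284 CPM for GR and 221 to 328 CPM for the cultures. In each culture library 6 to 10 of the 21 had counts, while the defining markers Csf1r, C1qa, Itgam and Adgre1 had 0 counts in all 12. Cyp11a1 itself had 0 counts in all 4 WT and in 5 of 6 cKO libraries, so its loss could not be checked. Nr3c1 was at 14.9 ± 2.38 CPM in GR WT (SD, n = 5) and 8.43 ± 1.42 CPM in cKO (n = 4), without overlap but not past the threshold (edgeR adjusted p = 0.58). The glucocorticoid target Tsc22d3 rose with Dex, from 47.3 ± 2.50 to 115 ± 5.16 CPM (n = 3, edgeR adjusted p = 9.52e-05), and the TGF-β target Smad7 was at 4.42 ± 1.16 CPM in Control and 5.80 ± 0.74 CPM with TGF-β1 (n = 3, edgeR adjusted p = 0.665).

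Izumo1r and Nt5e were the 2 genes of the 8 that passed the test in any comparison, in both cases with TGF-β1. Both lie on chromosome 9 (GRCm38, GENCODE M21), Izumo1r at 14885814 to 14903949 on the minus strand and Nt5e at 88327197 to 88372092 on the plus strand. The sequences before their start sites are shown for this reason. RefSeq windows of 250 bases upstream of a start (GRCm38.p6) were found for 6 of the 8 genes. They were searched on both strands for CAGACA, the Smad-binding CAGA box, and for a full glucocorticoid response element, 2 copies of AGAACA facing each other across 3 bases. The motifs were chosen after the changes were known.

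Nt5e, chr9:88327527-88327556, plus strand: actcggggagtgTGTCTGcaagcgggaggg
Izumo1r, chr9:14903950-14904017, minus strand: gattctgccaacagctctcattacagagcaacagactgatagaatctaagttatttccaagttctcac

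The capitals mark CAGACA on the opposite strand, 70 bases before the RefSeq start of Nt5e, inside the exon that GENCODE M21 draws further upstream. For Izumo1r the bases outside all GENCODE exons are printed, and its 250 bases held no CAGACA. The letters CAGACA occurred in 17.1% of 32851 windows, and Ebi3, which did not pass the test, had them 219 bases before its start. The full glucocorticoid element occurred in 3 windows of all genes and in none of the 6 genes with a window. These are matches of letters and no evidence of binding.

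Across the experiments, the 8 genes split by where their RNA was found (the plot of levels in every library). Foxp3 was near the limit of detection in the cultures, below every CNS library. Il10 was low throughout, at 0 to 3.498 CPM in the cultures and 0.217 to 11.2 CPM in the CNS, with ranges that overlap. Izumo1r, Il2ra and Ebi3 showed the reverse, with every culture above every CNS library. Nt5e and Entpd1 were higher in every CNS library than in every culture. Each experiment was a separate table, with other cells and sorts, so levels between experiments are set side by side without a test.

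**Figure D1:**
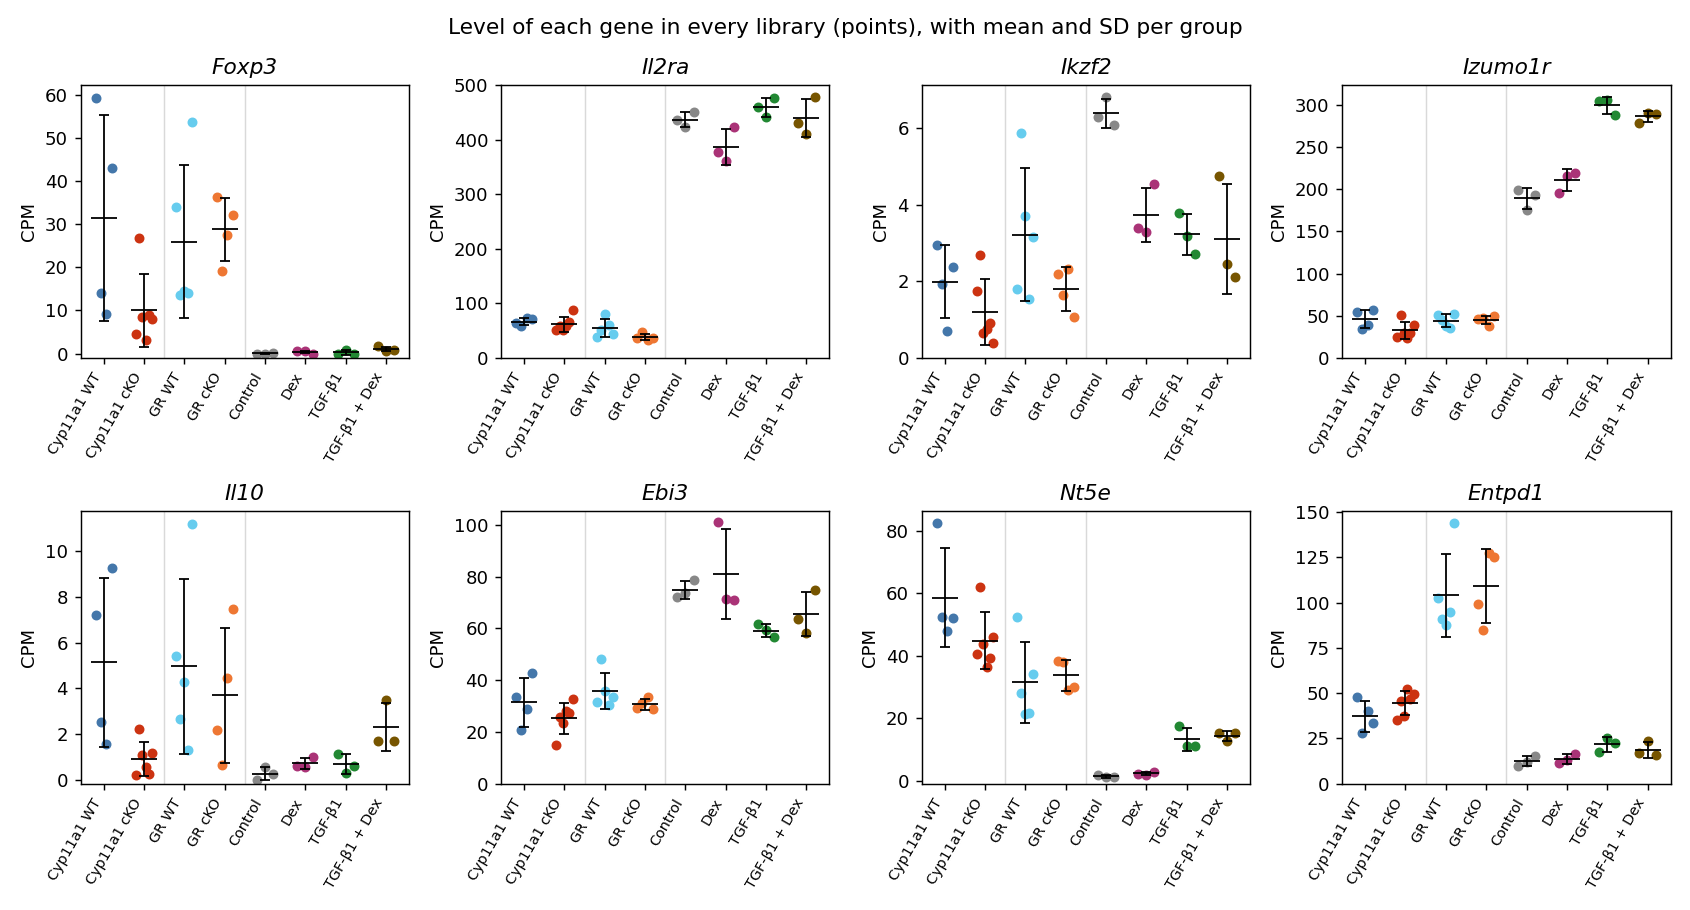
Level of each of the 8 genes in CPM (vertical axes, linear) in each library (points) of the 8 groups, with the group mean and SD (bars). Izumo1r lay at 288 to 306 CPM with TGF-β1 against 176 to 200 CPM in Control, and Foxp3 reached 59.2 CPM in a Cyp11a1 WT library against at most 1.70 CPM in any culture.

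Per kilobase of exon, the scale on which genes can be compared, Izumo1r led the cultures. In Control it stood at 81.7 ± 5.33 CPM per kb (SD, n = 3), overlapping Il2ra at 76.6 ± 2.48. Ebi3 followed at 64.8 ± 2.97 CPM per kb and Entpd1 at 2.20 ± 0.50, each without overlap with the gene above it. With TGF-β1, Izumo1r stood clear of Il2ra, at 129 ± 4.26 against 80.6 ± 3.09 CPM per kb (n = 3). In CNS cells the order was headed by Ebi3, at 27.2 ± 8.11 in Cyp11a1 WT (n = 4) and 31.0 ± 6.19 CPM per kb in GR WT (n = 5). Its range overlapped that of Izumo1r, the next gene, in both Cyp11a1 groups, and stood clear of the next gene in both GR groups. Ikzf2 was last of the 8 in all 4 CNS groups, between 0.102 and 0.277 CPM per kb on average.

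In the cultures, TGF-β1 raised Nt5e and Izumo1r, with or without Dex, and no change of the 8 genes passed the test with Dex alone. Of the 8 genes, 6 had enough counts to be tested. Against Control, 2 of the 6 passed with TGF-β1 (background 3.29% of 10332 genes tested, 1.93% higher), 2 with both agents (background 6.25%, 3.12% higher) and 0 with Dex (background 1.83%). The 2 were Nt5e and Izumo1r each time, and both were higher. The median log2 fold change of the 6 was 0.37, 0.29 and 0.12, beside medians of all genes at 0.00 in each. With Dex, 3 of the 6 genes and 1364 of all genes had an unadjusted p below 0.05, and DESeq2 and limma voom gave 0 of the 8 genes as well. These counts describe the genes that reached the test. Nt5e had 4 or 5 counts in Control and reached it through its level with TGF-β1.

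**Figure D2:**
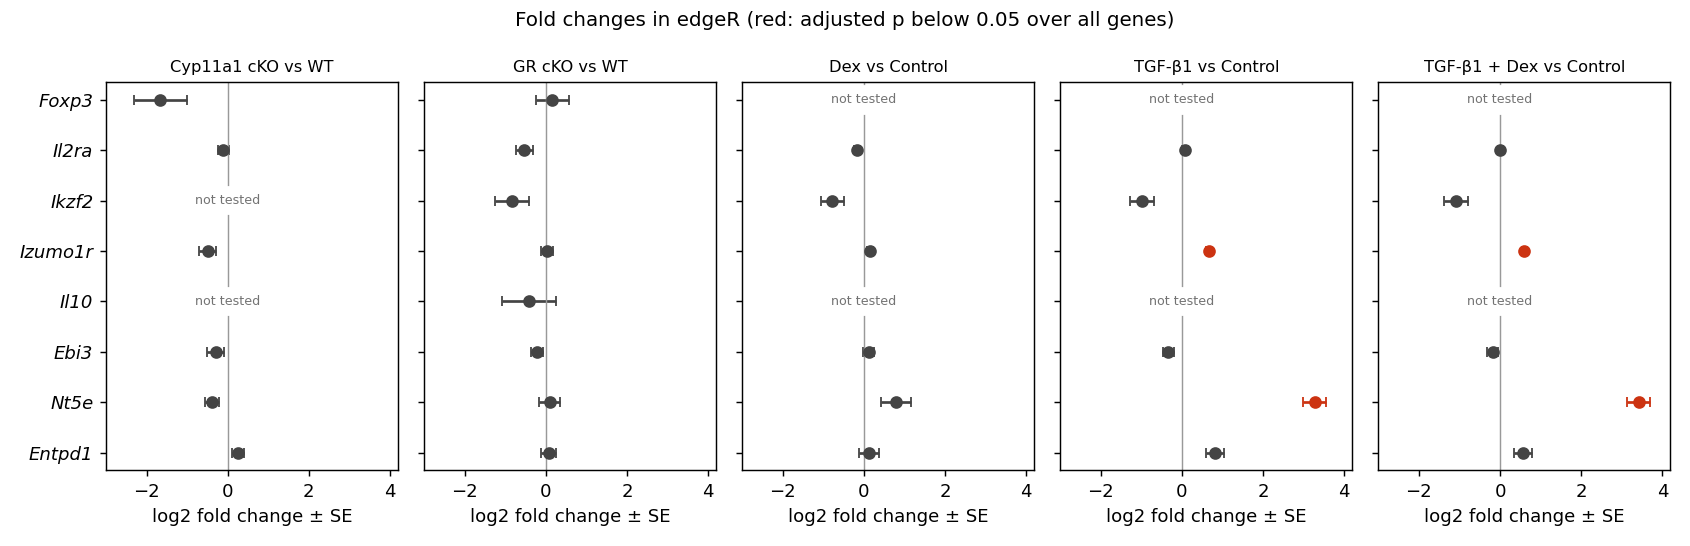
Log2 fold change (horizontal axes) with its standard error for each of the 8 genes in 5 comparisons, red where the edgeR adjusted p was below 0.05 over all genes. The red points are Nt5e and Izumo1r in the 2 comparisons with TGF-β1, at 3.27 and 0.66 for TGF-β1 alone.

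Nt5e encodes CD73, the surface enzyme that turns AMP into adenosine. Its levels were 1.75, 1.09 and 1.22 CPM in Control and 2.16, 1.92 and 2.93 CPM with Dex. They were 17.4, 10.99 and 11.2 CPM with TGF-β1 and 15.3, 12.6 and 15.4 CPM with both. All 6 libraries with TGF-β1 lay above all 6 without it, a separation whose share over all genes was not counted. Markers of Th17 cells (6 genes) moved with them, summing to 152 to 265 CPM with TGF-β1 and 57.2 to 118 CPM without. So did dendritic cell markers (8 genes), at 17.5 to 24.6 CPM with TGF-β1 and 8.21 to 16.8 CPM without, with Cd209a and Itgax at 0 counts in all 12 libraries. Markers of NK and CD8 T cells (7 genes) were at 10.6 to 11.6 CPM with TGF-β1 alone, 17.3 to 27.6 CPM with both agents and 22.2 to 28.5 CPM without TGF-β1. The part of these lists in the result was not tested. The log2 fold change of TGF-β1 over Control was 3.27 ± 0.29 (SE, edgeR adjusted p = 3.28e-05), a 9.64-fold rise. With both agents it was 3.42 ± 0.28 over Control (edgeR adjusted p = 1.21e-05) and 2.63 ± 0.26 over Dex (edgeR adjusted p = 0.00011). Between both agents and TGF-β1 alone it was 0.15 ± 0.21 (edgeR adjusted p = 0.913). The 3 Dex libraries also lay above the 3 Control libraries, at 7 to 9 counts against 4 to 5, but 0.79 ± 0.37 did not pass (edgeR adjusted p = 0.474). The departure from additive effects on the log2 scale, tested as an interaction, was -0.64 ± 0.42 (edgeR adjusted p = 0.959).

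Izumo1r encodes folate receptor 4, a surface protein high on regulatory T cells and on unresponsive CD4 T cells. It was at 200, 176 and 193 CPM in Control and at 196, 216 and 220 CPM with Dex. TGF-β1 gave 305, 306 and 288 CPM, and both agents 279, 291 and 290 CPM. Here too the 6 libraries with TGF-β1 lay above the 6 without, again with no share over all genes counted. The log2 fold change was 0.66 ± 0.06 for TGF-β1 (edgeR adjusted p = 7.56e-05) and 0.60 ± 0.06 for both agents over Control (edgeR adjusted p = 8.98e-05). Over Dex, both agents gave 0.44 ± 0.06 (edgeR adjusted p = 0.00188), a call lost when libraries were scaled by their totals alone (0.40, edgeR adjusted p = 0.127). Dex alone gave 0.15 ± 0.06 (edgeR adjusted p = 0.325).

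The genes whose pattern was closest to Nt5e and Izumo1r over the 12 cultures, by the root mean square difference of centred log2(CPM + 0.5), were Ccr6 (0.358) and Timp1 (0.443) for Nt5e, and Traf6 (0.105) and Spsb3 (0.115) for Izumo1r. Ccr6, a chemokine receptor of Th17 cells, went from 9.05 ± 1.82 CPM in Control to 56.6 ± 9.24 with TGF-β1 and 89.8 ± 8.42 with both (SD, n = 3). Traf6, a signalling adaptor, went from 38.4 ± 2.25 to 57.8 ± 4.92 and 62.5 ± 1.51 CPM (n = 3).

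Entpd1 (chromosome 19, 40612366 to 40741602, plus strand) encodes CD39, which turns ATP into AMP and so feeds CD73. It was at 9.80, 11.7 and 15.3 CPM in Control, 11.4, 12.9 and 16.6 with Dex, 17.4, 25.2 and 22.4 with TGF-β1, and 16.7, 23.8 and 15.6 with both. The TGF-β1 libraries lay above Control, by 0.81 ± 0.22 on the log2 scale. This missed the threshold (edgeR adjusted p = 0.0803), and passed it without a filter on low counts (0.0441) and with a mean count filter of 50 (0.0464), both edgeR adjusted p. With both agents it was 0.57 ± 0.23 (edgeR adjusted p = 0.188).

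Ikzf2 (chromosome 1, 69531214 to 69687245, minus strand), which encodes the transcription factor Helios, showed its highest levels in Control, at 6.30, 6.81 and 6.09 CPM. The other 9 cultures lay between 2.11 and 4.76 CPM, all below Control, at 7 to 14 counts each. No change passed the test: the log2 fold change was -0.77 ± 0.29 with Dex (edgeR adjusted p = 0.25), -0.99 ± 0.30 with TGF-β1 (edgeR adjusted p = 0.115) and -1.08 ± 0.30 with both (edgeR adjusted p = 0.0527). The last passed with limma voom (adjusted p = 0.0226) and in edgeR without replicate 1 of the group with both agents (-1.49, adjusted p = 0.0113).

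Il2ra (chromosome 2, 11642807 to 11693193, plus strand) encodes the alpha chain of the IL-2 receptor, CD25. It was at 437 ± 14.1 CPM in Control, 387 ± 32.8 with Dex, 460 ± 17.6 with TGF-β1 and 440 ± 35.1 with both (SD, n = 3). None of its changes over Control passed, the smallest edgeR adjusted p being 0.29 with Dex (-0.18 ± 0.07). Ebi3 (chromosome 17, 55952640 to 55957022, plus strand), a chain shared by IL-27 and IL-35, was at 72.1, 73.6 and 78.6 CPM in Control and at 61.6, 59.3 and 56.6 CPM with TGF-β1. Those groups did not overlap, but -0.34 ± 0.14 did not pass (edgeR adjusted p = 0.261).

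Groups that do not overlap are common with 3 libraries against 3. Against Control, 5 of the 6 tested genes did not overlap with TGF-β1 (background 21% of genes), 4 with both (background 23.6%) and 2 with Dex (background 19.3%). Between both agents and TGF-β1 alone, none of the 6 passed (background 0.532%) and none stood apart (background 15.2%), none had an unadjusted p below 0.05 in edgeR, and DESeq2 and limma voom also gave 0. Both agents over Dex gave 2 of the 6 (background 2.62%, 1.46% higher), again Nt5e and Izumo1r, which were also the 2 that stood apart (background 18.4%). Nt5e had 7 to 9 counts in Dex and reached this test, too, through its level with TGF-β1. The filter thus favoured Nt5e for the change tested, so these shares cannot say how unusual a count of 2 is. With a mean count filter of 50, which Nt5e does not reach, both agents over Dex gave 1, Izumo1r. The interaction passed for none of the 6 and for none of 10332 genes (background 0%), with 1 of the 6 and 552 genes at an unadjusted edgeR p below 0.05. DESeq2 gave none of the 6 and 6 of all genes, and limma voom none of the 6. The comparisons share libraries, so they are not independent of each other.

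Foxp3 and Il10, the 2 genes below the filter in the cultures, had 10 counts or fewer in each library. Foxp3 lies on chromosome X at 7573644 to 7595245 and Il10 on chromosome 1 at 131019845 to 131024974, both on the plus strand. Foxp3 had 0, 0 and 1 counts in Control, 2, 2 and 0 with Dex, 0, 3 and 0 with TGF-β1, and 5, 2 and 4 with both. Il10, the anti-inflammatory cytokine, had 0, 2 and 1 counts in Control, 2, 2 and 3 with Dex, 3, 1 and 2 with TGF-β1, and 5, 10 and 8 with both. The libraries with both agents lay above those of Control in each gene. The share of genes that stood apart, 23.6% of those tested, covers neither gene. With Dex, Il10 also stood above Control, but at 0.547 against 0.545 CPM in the nearest libraries. Summed over libraries, Il10 had 23 counts against 3, a ratio of 7.73 corrected for depth and TMM factor, with an exact 95% interval of 2.34 to 40.2. Foxp3 had 11 counts against 1, a ratio of 11.1 with an interval of 1.61 to 477. Over Dex and over TGF-β1, both agents gave Il10 ratios of 3.11 (1.29 to 8.57) and 3.42 (1.35 to 10.3). The Foxp3 ratios were 2.60 (0.770 to 11.2) and 3.27 (0.864 to 18.3), intervals that include no difference. These ratios were computed after the counts were seen, and the intervals cover counting error only, not the spread between cultures. In edgeR without the filter, neither passed: Il10 gave 2.87 ± 0.91 (adjusted p = 0.104) and Foxp3 3.12 ± 1.52 (adjusted p = 0.471) on the log2 scale.

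Exons of Foxp3 overlap those of Ccdc22 and Ppp1r3f on the other strand, and of Flicr on its own, and the library protocol kept no strand. Ccdc22 was at 10.8 to 14.2 CPM in the cultures, where Foxp3 was at 0 to 1.70 CPM. Flicr and Ppp1r3f were lower on average in Cyp11a1 cKO than in WT, as Foxp3 was: Flicr at 0.330 ± 0.39 against 1.23 ± 0.81 CPM and Ppp1r3f at 0.827 ± 0.70 against 1.76 ± 0.69 CPM (SD, n = 6 and 4). Ccdc22 was at 10.01 ± 1.33 against 7.38 ± 1.78 CPM. In the GR groups, Flicr averaged 1.15 and 1.79, Ppp1r3f 3.12 and 3.23, and Ccdc22 12.4 and 13.1 CPM in WT and cKO. The part that reads of these genes have in the Foxp3 counts of CNS cells was not tested. Ikzf2 and Ebi3 have overlapping antisense genes as well, at no more than 0.243 and 5.84 CPM in any library.

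Pathways around the 8 genes were read from 7 lists, some of which share genes (the plot of pathway genes). Over all genes tested, 1.83% passed with Dex, 3.29% with TGF-β1 and 6.25% with both. The counts of each list stand beside these shares. Genes low in Control could reach the test through the treated group where they were high, as Nt5e did. These shares therefore cannot say how unusual a count in a list is. In the IL-2 receptor and Stat5 list, 1 of 12 tested genes rose with TGF-β1 and none fell (3.29% of all genes passed): Stat5a, a transcription factor downstream of the IL-2 receptor, rose by 0.64 ± 0.11 (edgeR adjusted p = 0.00393). With Dex, 1 rose and 2 fell (1.83% of all genes passed). The cytokine gene Il2 fell from 90.2 ± 20.9 to 19.2 ± 5.82 CPM (SD, n = 3), by 2.23 on the log2 scale (edgeR adjusted p = 0.0127), and Stat5a fell by 0.50 (edgeR adjusted p = 0.0375). Socs2, a feedback inhibitor of Stat5, rose by 0.34 (edgeR adjusted p = 0.0255). The medians of this list were 0.04 with TGF-β1 and -0.06 with Dex.

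Among 25 inducers and partners of Foxp3, 3 rose and 2 fell with TGF-β1 (3.29% of all genes passed), with a median of 0.18. Smad3, which carries the TGF-β signal to the nucleus, rose by 0.72 ± 0.17 (edgeR adjusted p = 0.0359) and Ikzf4, which encodes the Foxp3 partner Eos, by 0.88 ± 0.17 (edgeR adjusted p = 0.0107). Gata3, a transcription factor of Th2 cells that regulatory T cells also use, fell from 112 ± 6.19 to 31.2 ± 3.23 CPM (edgeR adjusted p = 0.000735). Dex lowered 2 of the 25 and raised none: the activation-induced receptors Nr4a3, by 1.41 on the log2 scale (edgeR adjusted p = 9.88e-05), and Nr4a1, by 0.73 (edgeR adjusted p = 0.00678). With both agents 1 rose and 4 fell.

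Of 19 regulators of Il10, 16 were tested, and with both agents 5 rose and 2 fell (6.25% of all genes passed). Those that rose were Maf, Irf4, Stat3, Il6ra and Icos, and those that fell were Batf and Gata3. Maf, a transcription factor that drives Il10 in T cells, went from 1.37 ± 0.33 CPM in Control to 4.58 ± 0.17 with both (n = 3), a log2 fold change of 1.68 ± 0.31 (edgeR adjusted p = 0.00555). Maf reached the test mainly through its levels with TGF-β1, with or without Dex. With TGF-β1 alone 3 rose and 2 fell, Maf by 1.57 ± 0.32 (edgeR adjusted p = 0.0149). Dex alone raised 1, the costimulatory receptor Icos, from 54.5 ± 4.53 to 123 ± 7.11 CPM (edgeR adjusted p = 1.76e-05). The medians were 0.11 with both, 0.19 with TGF-β1 and -0.07 with Dex.

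On the receiving side of IL-10, 7 genes were tested, of which 2 rose and 1 fell with TGF-β1 (3.29% of all genes passed). Il10ra, the ligand-binding receptor chain, fell from 56.4 ± 5.21 to 29.9 ± 2.12 CPM (edgeR adjusted p = 0.000307). Stat3, the factor it activates, rose by 0.42 ± 0.06 (edgeR adjusted p = 0.00168) and the inhibitor Socs3 by 0.84 ± 0.10 (edgeR adjusted p = 0.000525). The same 3 genes passed in the same directions with both agents, and with Dex none of the 7 passed or had an unadjusted edgeR p below 0.05.

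Other effector genes of regulatory T cells moved in both directions. Of 23 tested, 5 rose and 3 fell with TGF-β1, 4 rose and 2 fell with Dex, and 6 rose and 5 fell with both, where 3.29%, 1.83% and 6.25% of all genes passed. The medians were 0.07, -0.10 and 0.04. With TGF-β1, the integrin chain Itgae rose by 2.56 ± 0.55 (edgeR adjusted p = 0.0204). Itgae was at 0.83 CPM on average in Control, 5.12 with TGF-β1 and 1.65 with both, and reached the test through its level with TGF-β1. The inhibitory receptor Tigit fell with TGF-β1 by 1.54 (edgeR adjusted p = 1.55e-05) and the protease gene Gzmb by 1.59 (edgeR adjusted p = 0.00609). With both agents, Gzmb fell from 655 ± 59.8 to 100.2 ± 28.4 CPM (edgeR adjusted p = 0.000154).

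Of 13 tested genes of adenosine handling, 1 rose and 1 fell with TGF-β1 (3.29% of all genes passed). Cd38, which makes the NAD product ADP-ribose that can feed adenosine production, went from 1.17 ± 0.60 to 10.2 ± 1.00 CPM (edgeR adjusted p = 0.00017). Like Nt5e, Cd38 reached the test through its level with TGF-β1. The adenosine receptor gene Adora2b fell from 19.6 ± 2.09 to 10.9 ± 2.60 CPM (edgeR adjusted p = 0.018). Of the 5 tested chains and receptors of the IL-12 family, to which Ebi3 belongs, none rose with TGF-β1 and 1 fell, the receptor chain Il12rb2, from 169 ± 23.2 to 94.4 ± 22.1 CPM (edgeR adjusted p = 0.0246). With both agents, the cytokine chain Il23a rose from 3.16 ± 0.98 to 14.4 ± 3.39 CPM (edgeR adjusted p = 0.00228), and the receptor chain Il12rb1 fell from 132 ± 3.90 to 105 ± 5.71 CPM (edgeR adjusted p = 0.00801). The 2 families had medians of -0.05 and -0.07 with TGF-β1.

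**Figure D3:**
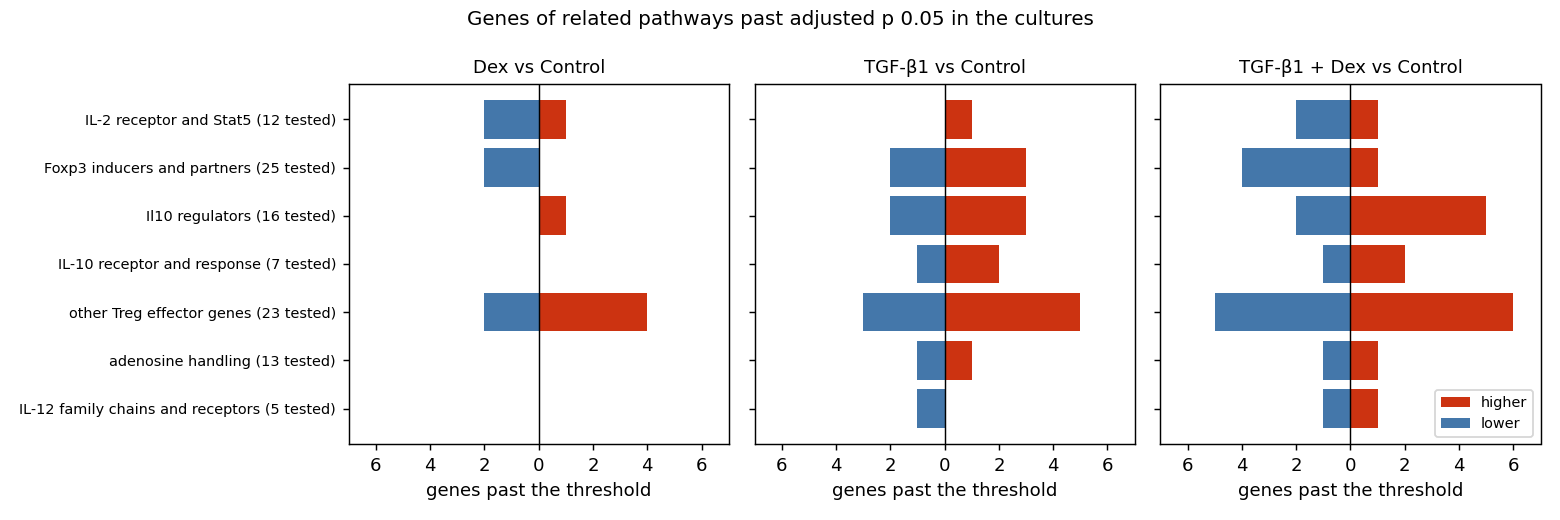
Number of genes past an edgeR adjusted p of 0.05 (horizontal axes, higher to the right in red, lower to the left in blue) in 7 pathway lists, for Dex, TGF-β1 and both over Control, with the number tested beside each list. Other regulatory T cell effector genes show 6 higher and 5 lower with both agents, and Il10 regulators 5 higher and 2 lower.

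In the Cyp11a1 experiment, none of the 8 genes passed the test, and 5 of the 6 tested had lower mean levels in cKO. The count was 0 of 6 in edgeR (background 0.178% of 10125 genes) and also 0 in DESeq2 and limma voom. An unadjusted edgeR p below 0.05 was found for 3 of the 6, Foxp3, Izumo1r and Nt5e, and for 810 of all genes. The median log2 fold change of the 6 was -0.34, beside 0.00 for all genes. In none of the 6 did WT and cKO stand apart (background 1.97%). Ikzf2 and Il10 fell below the filter.

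Foxp3 was at 59.2, 14.1, 9.22 and 42.9 CPM in the WT libraries. In cKO the lowest was 3.20, the median 8.35 and the highest 26.7 CPM. WT replicates 1 and 4 lay above every cKO library, WT 2 and 3 lay within the cKO range, and cKO 2 stood apart from the other cKO libraries. The log2 fold change was -1.66 ± 0.66 (edgeR adjusted p = 0.565). It ranged from -2.21 without cKO replicate 2 to -1.12 without WT replicate 1. Without both WT 1 and WT 4, which had stood apart in earlier results and are also the 2 libraries highest in Foxp3 and Il10, it was -0.24 ± 0.69 (edgeR adjusted p = 0.963). Myeloid markers summed to 927 to 1029 CPM in WT and 1013 to 1803 CPM in cKO, and with their sum as a covariate the value was -2.88 ± 0.86 (edgeR adjusted p = 0.358). Among the cKO libraries only cKO 3, at 1013 CPM, lay within the WT range. In that fit the covariate and genotype can therefore hardly be told apart. Markers of NK and CD8 T cells (7 genes) summed to 75.1 to 317 CPM in WT and 192 to 474 CPM in cKO. Those of Th17 cells separated the genotypes, at 229 to 318 CPM in WT and 129 to 224 CPM in cKO. So did dendritic cell markers (8 genes), at 9.22 to 11.4 CPM in WT and 13.5 to 32.4 CPM in cKO. The part of these 3 lists in the Foxp3 difference was not tested. In bulk samples, fewer cells with a transcript and less transcript per cell cannot be told apart.

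Il10 had 34, 13, 9 and 35 counts in WT, which is 7.19, 2.52, 1.57 and 9.27 CPM. In the 6 cKO libraries it had 1 to 9 counts, 0.217 to 2.20 CPM. As in Foxp3, WT 1 and WT 4 were highest, and only the cKO library highest in Foxp3, cKO 2, reached into the WT range. In edgeR without the filter the log2 fold change was -2.45 ± 0.59 (adjusted p = 0.249).

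Izumo1r was at 54.2, 34.5, 39.5 and 56.4 CPM in WT and at 22.9 to 50.7 CPM in cKO, with a median of 29.8. Its log2 fold change of -0.49 ± 0.21 did not pass (edgeR adjusted p = 0.576). With the myeloid covariate, under the same limit as for Foxp3, it was -1.003 (edgeR adjusted p = 0.142). Nt5e was at 82.3, 52.3, 47.8 and 51.9 CPM in WT and at 36.5 to 62.0 CPM in cKO, with a median of 42.2, and gave -0.39 ± 0.17 (edgeR adjusted p = 0.582). Without both WT 1 and WT 4 these values were -0.18 and -0.16. Those were the highest WT libraries for Izumo1r, and WT 1 was the highest for Nt5e. Leaving them out thus lowers the WT level by itself, so these values are no independent check. Entpd1 was the 1 tested gene with a higher mean in cKO, at 44.5 ± 6.74 (n = 6) against 37.3 ± 8.54 CPM (n = 4), by 0.26 ± 0.15 (edgeR adjusted p = 0.745).

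For Il2ra and Ebi3, too, the genotypes overlapped. Il2ra was at 66.5 ± 6.81 CPM in WT (n = 4) and 61.8 ± 13.7 in cKO (n = 6), a log2 fold change of -0.10 ± 0.14 (edgeR adjusted p = 0.904). Ebi3 was at 31.4 ± 9.35 and 25.3 ± 6.01 CPM, a change of -0.30 ± 0.21 (edgeR adjusted p = 0.784). Ikzf2 had 4 to 14 counts in WT and 2 to 11 in cKO, and these ranges overlap. No gene of the 7 pathway lists passed between Cyp11a1 cKO and WT in edgeR, and 0 to 5 genes a list had an unadjusted p below 0.05. The smallest p among the Foxp3 inducers and partners was that of Bach2, a repressor that favours regulatory T cells, at 6.77 ± 1.86 CPM in WT and 3.29 ± 0.83 in cKO (edgeR adjusted p = 0.14).

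In the GR experiment, all 8 genes were tested and none passed in edgeR, DESeq2 or limma voom (edgeR background 0% of 10597 genes, since no gene passed). An unadjusted edgeR p below 0.05 was found for 1 of the 8, Il2ra, and for 870 of all genes. The median log2 fold change of the 8 was -0.10, beside 0.00 for all genes, and no gene of the 8 separated the groups (background 2.25%). These libraries held many myeloid transcripts, 6882 to 26284 CPM in WT and 13337 to 26064 CPM in cKO, with all 21 markers detected.

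Foxp3 was at 34.1, 13.6, 14.5, 14.1 and 53.6 CPM in GR WT and at 36.3, 19.1, 27.4 and 32.2 CPM in cKO. WT 1 lay within the cKO range, WT 5 above it and the remaining 3 WT libraries below it. The log2 fold change was 0.16 ± 0.41 (edgeR adjusted p = 0.91) and 0.64 ± 0.32 in limma voom (adjusted p = 0.306). In the 5 libraries with myeloid sums of 19934 to 26284 CPM Foxp3 was at 27.4 to 53.6 CPM, and in the 4 with sums of 6882 to 13337 CPM it was at 13.6 to 19.1 CPM. With the myeloid sum as a covariate, Foxp3 gave -0.26 ± 0.21 (edgeR adjusted p = 0.993).

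Il2ra ran the other way. It was at 38.4, 51.5, 80.9, 60.1 and 43.8 CPM in WT and at 37.3, 47.0, 31.9 and 36.5 CPM in cKO, with the lower WT libraries, 1 and 5, inside the cKO range. The log2 fold change was -0.53 ± 0.21 (edgeR adjusted p = 0.58), and -0.19 ± 0.12 with the myeloid covariate (edgeR adjusted p = 0.975). Ikzf2 was at 3.22 ± 1.74 CPM in WT (n = 5) and 1.81 ± 0.57 in cKO (n = 4), a change of -0.83 ± 0.43 (edgeR adjusted p = 0.58). It had 6 to 29 counts a library in WT and 4 to 12 in cKO, and reached the test mainly through its WT libraries.

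Il10 was at 1.28 to 11.2 CPM in GR WT, with a median of 4.27, and at 2.19, 0.660, 4.44 and 7.45 CPM in cKO. Its change of -0.41 ± 0.66 did not pass (edgeR adjusted p = 0.849), nor did -1.10 ± 0.53 with the myeloid covariate (edgeR adjusted p = 0.952). Izumo1r (0.03 ± 0.15), Nt5e (0.10 ± 0.26), Entpd1 (0.07 ± 0.18) and Ebi3 (-0.23 ± 0.15) also gave log2 fold changes that did not pass, with edgeR adjusted p of 0.961, 0.912, 0.908 and 0.623. Entpd1 stood at 104 ± 23.1 CPM in WT and 109 ± 20.7 CPM in cKO, above all Cyp11a1 and culture libraries. The part of the myeloid transcripts in that level was not tested. None of the genes in the 7 lists passed, 0 to 6 a list had an unadjusted edgeR p below 0.05, and the smallest p was that of Socs2, at 60.6 ± 3.59 CPM in WT and 42.7 ± 4.83 in cKO (edgeR adjusted p = 0.58).

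Several of the 8 genes varied together from library to library. Foxp3 was compared with each of the other 7 genes in both CNS experiments, 14 relations in all, on log2(CPM + 0.5). Foxp3 was taken as the reference after the rise of Il10 in the same libraries had been seen in the counts, so these relations were found and measured on the same data. The p-values are therefore no independent test of them. Libraries were permuted across both genotypes, so a difference between genotypes that both genes share also enters r and p. In permutation tests adjusted over the 14 (Benjamini-Hochberg), 5 had an adjusted p below 0.05 by Pearson's r, 4 in the Cyp11a1 experiment and 1 in the GR experiment, and 3 of these also by Spearman's rho.

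In the 10 Cyp11a1 libraries, Foxp3 rose and fell with Izumo1r at r = 0.93 and rho = 0.89 (permutation p = 0.0001 and 0.0012, adjusted 0.0014 and 0.00966). Nt5e followed at r = 0.89 and rho = 0.88 (permutation p = 0.00039 and 0.00177, adjusted 0.00273 and 0.00966), and Il10 at r = 0.90 and rho = 0.87 (permutation p = 0.00072 and 0.00207, adjusted 0.00336 and 0.00966). Without WT 1 and WT 4, the 2 libraries farthest from the median of Foxp3, r was 0.89 for Izumo1r, 0.92 for Nt5e and 0.72 for Il10. Within the 6 cKO libraries alone it was 0.93, 0.92 and 0.71. With each library taken as its deviation from the mean of its genotype, r was 0.90, 0.83 and 0.84. All 3 thus stayed positive without the 2 WT libraries and within 1 genotype, where cKO 2 stands apart in Foxp3. Il10 was below the filter in these libraries and had 1 to 9 counts in cKO, so its r there rests on few reads.

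Ikzf2 followed Foxp3 less closely, at r = 0.73 and rho = 0.73 (permutation p = 0.0166 and 0.0193, adjusted 0.0465 and 0.0677), and at 0.52 without WT 1 and WT 4. For deviations from the genotype means its r was 0.66. Ikzf2 was below the filter as well, at 2 to 14 counts a library. The other 3 genes did not: r was 0.55 for Ebi3, 0.22 for Il2ra and -0.14 for Entpd1, with adjusted permutation p of 0.14, 0.577 and 0.688. The summed T cell markers were at 33740 to 39595 CPM across these libraries. Per 1000 CPM of T cell markers Foxp3 spanned 0.273 to 1.496 CPM in WT and 0.0948 to 0.689 CPM in cKO. This list does not separate kinds of T cells, and the part of T cell content in the relations was not tested.

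**Figure D4:**
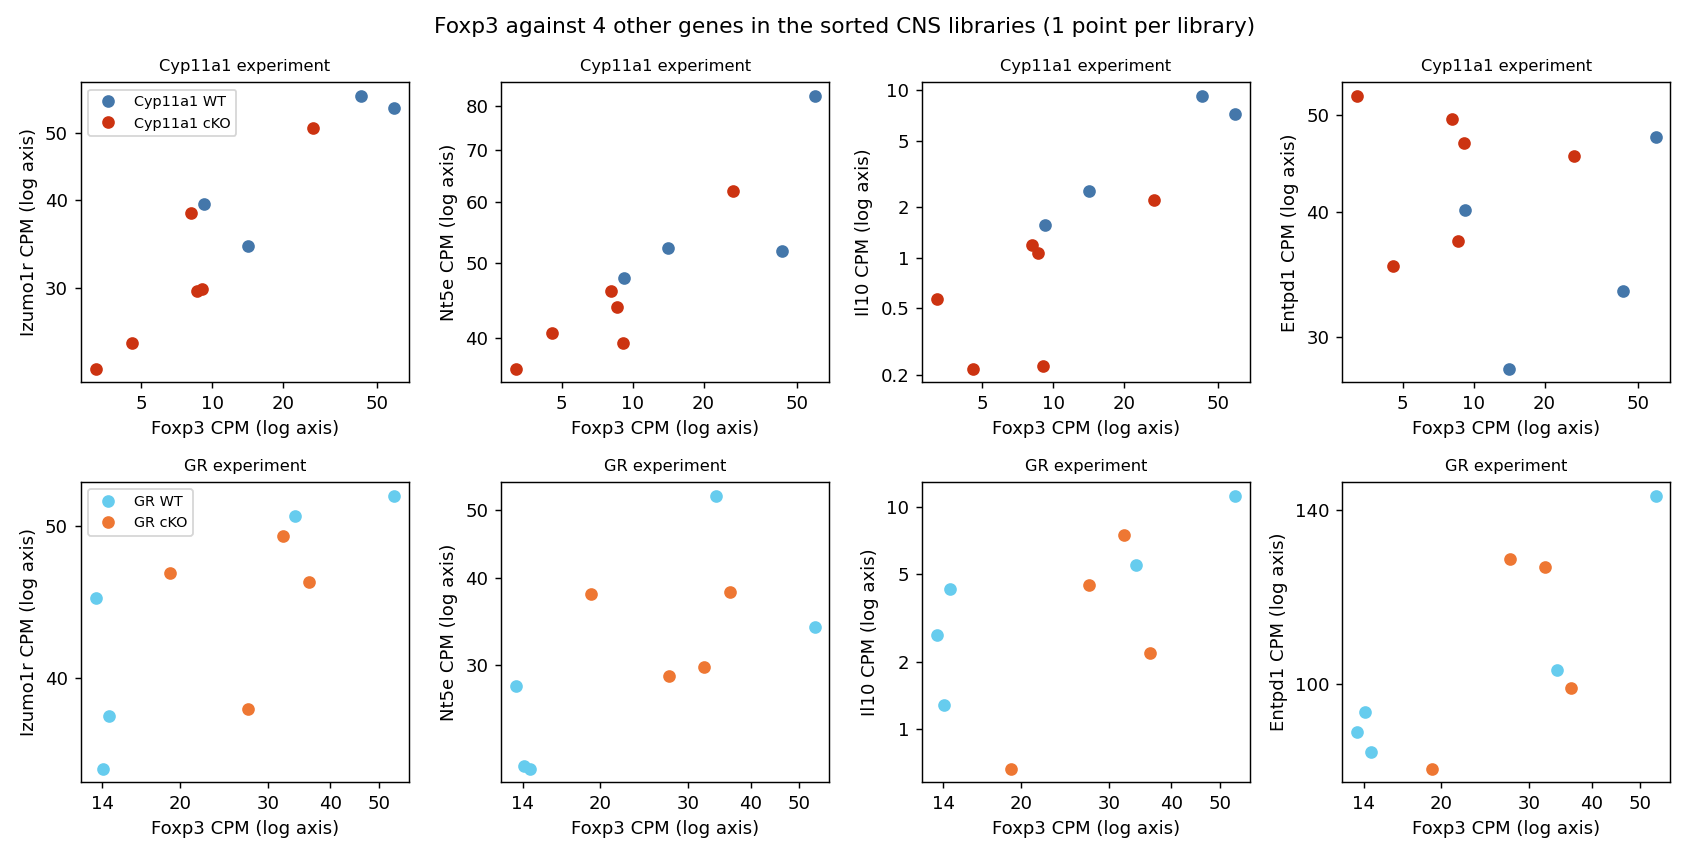
Level of Izumo1r, Nt5e, Il10 and Entpd1 against Foxp3 (CPM, both axes logarithmic), 1 point per library, for the 10 Cyp11a1 libraries (top) and the 9 GR libraries (bottom), coloured by genotype. In the Cyp11a1 libraries the first 3 genes rise with Foxp3 at r of 0.93, 0.89 and 0.90, and Entpd1 does not at -0.14.

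In the 9 GR libraries the same 3 genes had positive relations with Foxp3 that did not pass after adjustment: r = 0.70 for Izumo1r, 0.64 for Il10 and 0.63 for Nt5e (exact permutation p = 0.0457, 0.0678 and 0.0689, adjusted 0.0914, 0.107 and 0.107). Entpd1 had the closest, at r = 0.78 and rho = 0.68 (exact permutation p = 0.0165 and 0.0503, adjusted 0.0465 and 0.101), and r = 0.61 without WT 2 and WT 5, the farthest libraries. Its r for deviations from the genotype means was 0.78. Il2ra had a negative one, r = -0.70 and rho = -0.62 (exact permutation p = 0.0332 and 0.0857, adjusted 0.0774 and 0.15). Whether the relations with Foxp3 differ between the experiments was not tested. The myeloid sums above split these libraries into the same higher and lower groups as Foxp3. Within these groups the order differed, and the part of the myeloid sums in the relations was not tested.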

How the data were processed

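Counts per gene were deposited by the authors in 3 tables, 1 per experiment, without normalisation. RSEM 1.3.3 and mm10 are listed, with no role, per the submitters' processing notes, so the whole-number counts may be rounded estimates. Per the labels, libraries were made from polyadenylated RNA with a modified SMART-Seq2 protocol. Columns were matched to libraries by label, and 0 were left over. The members, the pathway lists and the analyses were chosen with earlier results of these data known.

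Each table was fitted alone in R 4.3.3 with edgeR 4.0.16: filterByExpr, TMM scaling, robust quasi-likelihood F tests, Benjamini-Hochberg adjustment over all genes tested and a threshold of 0.05. The 4 culture groups shared 1 fit. The test was tried on simulated counts. Positions and exon lengths came from GENCODE M21 (GRCm38). Correlations used Python 3.11.15 and scipy 1.17.1, with 100000 permutations for 10 libraries and exact tests for 9. Named genes were the 8 members, the targeted and check genes, in each list up to 3 of the largest changes past the threshold or the smallest p, and the 2 genes most alike to a member that passed; Batf, Irf4, Stat3, Il6ra, Icos and Gata3 complete a count. Alternatives were other scalings and filters, DESeq2 1.42.0, limma 3.58.1 voom, a replicate block, no predicted genes, a myeloid covariate, fits of only the groups compared, and leaving out each library. The fit without WT 1 and WT 4 was added later. Between 11.7% and 55.7% of the counts fell on 13 to 15 predicted genes.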

Additional observations from a re-analysis of the deposited data

Results flagged for a closer look

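Gaps between the extreme library and its neighbour were tested in 32 groups of 4 to 6 CNS libraries (8 genes in 4 groups), and 3 exceeded Dixon's 95% critical value, where chance gives about 1 in 20. Foxp3 in Cyp11a1 cKO replicate 2 was at 26.7 CPM, against 9.06 CPM in the next highest cKO library. Nt5e in Cyp11a1 WT replicate 1 was at 82.3 CPM, against 52.3 CPM in the next. Entpd1 in GR WT replicate 5 was at 144 CPM, against 103 CPM in the next.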

How the results depend on the processing

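Of 869 values of single genes under the alternatives, 843 kept their direction and 838 kept both direction and side of the threshold. The number of the 8 genes past the threshold stayed at 0 for Cyp11a1, GR, Dex, both agents over TGF-β1, and the interaction under all alternatives run. It was 1 for both agents over Dex with library totals (Nt5e), and 1 for both agents over Control and over Dex with a mean count filter of 50, which Nt5e does not reach. Leaving out a library gave 2 to 3 for both agents over Control, and 2 for TGF-β1 and for both over Dex. Replicate numbers were not taken to pair libraries, since the labels tie them to nothing shared. The correlations of same-numbered libraries' deviations ran from -0.139 to -0.0425, -0.238 to 0.1245 and -0.0188 to 0.0732 in the Cyp11a1, GR and culture tables. In the same order, 0 of 8, 1 of 8 and 9 of 12 libraries correlated best with their own number. In the cultures the median was 0.0275 for same-numbered and -0.0145 for other pairs, a hint of pairing from the data and not from the design. The replicate block gave 0 of the 8 genes for Cyp11a1, GR and Dex, and 2 for TGF-β1, for both over Control and for both over Dex.

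The values that changed sign were not past the threshold in either direction, and 14 of the 26 were in the GR comparison. The cause was not tested. Ebi3 in Cyp11a1 cKO was 0.040 without both WT 1 and WT 4, the WT libraries highest in Ebi3. In GR, library totals gave -0.047 for Izumo1r and -0.021 for Nt5e, and the myeloid covariate gave -0.26 for Foxp3, -0.088 for Izumo1r, -0.093 for Nt5e and -0.14 for Entpd1. Leaving out a library there gave -0.0035 to 0.57 for Foxp3, -0.044 to 0.10 for Izumo1r, -0.019 to 0.37 for Nt5e, -0.99 to 0.045 for Il10 and -0.011 to 0.22 for Entpd1. For both agents over Control, Il2ra was -0.022 with library totals and -0.055 to 0.056 without a library. Other ranges without a library were -0.068 to 0.20 for Ebi3 and -0.029 to 0.33 for Entpd1 with Dex, -0.075 to 0.23 for the interaction of Ebi3, and -0.50 to 0.17 for Ikzf2 between both agents and TGF-β1. Counts over all genes moved too: 18 for Cyp11a1 ranged from 1 (replicate block) to 63 (DESeq2), and 0 for GR up to 3. In the cultures, 189 for Dex ranged from 55 to 227, 340 for TGF-β1 from 177 to 362, and 646 for both over Control from 385 to 666. The 55 for both over TGF-β1 ranged from 15 to 94, 271 for both over Dex from 132 to 280, and 0 for the interaction up to 6 (DESeq2). Depth limits Foxp3 and Il10 in the cultures, where 1 read moves their level.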
